A study of Arabidopsis thaliana with 12 samples.

Results

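The isoxaben-resistant Arabidopsis thaliana line ixr1-1, which carries a point mutation in the cellulose synthase gene CESA3, was compared with the wild type Col-0 in the absence of the inhibitor. The comparison rests on 6 of the 12 libraries of the study, 3 of ixr1-1 and 3 of Col-0. Both lines are of the Col-0 ecotype, and whole seedlings were grown in shaken liquid medium for 6 days and then kept for 1 h in fresh medium with the solvent DMSO alone. The other 6 libraries are of the same genotypes after 1 h with 600 nM isoxaben, a herbicide that inhibits cellulose synthesis. They give the genotype difference a second time, in the presence of the inhibitor. Any response of either genotype to isoxaben enters that second difference. Per the labels, the seedlings of 1 flask were split between a DMSO and an isoxaben flask. Nothing in the labels names separate cultures for the 3 libraries of 1 group, and the p-values below cover only how far these libraries spread, which may be technical variation. Seed lots, flask numbers and seedling numbers are not given by the sources, and the mutant is represented by this single line.

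CESA3 is a catalytic subunit of the plasma membrane complex that spins cellulose microfibrils into the primary wall, the wall of growing cells. Plants monitor that wall through receptor kinases at the cell surface, and impaired cellulose synthesis is known to be followed by defence gene expression, jasmonate and ethylene signalling and ectopic lignin. Storage proteins and oil body proteins are made in the maturing embryo, and their transcripts are normally lost during germination and early seedling growth, which is why seed transcripts are described apart from all other genes below.

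Of the 33602 genes in the deposited tables, 20379 had enough counts to be tested, and the 6 libraries held 8521491 to 20658035 counts each. Levels are given as CPM, counts relative to the size of the library after TMM scaling, which corrects for the composition of a library and not for gene length. Differences are log2 values, ixr1-1 minus Col-0, ± the standard error (SE). A gene is called higher or lower where edgeR's quasi-likelihood test gave a Benjamini-Hochberg adjusted p under 0.05 over all tested genes. The first principal component of the 6 libraries took up 61.1% of the variance and set the genotypes apart, with Col-0 at -32.32 to -29.81 and ixr1-1 at 22.94 to 37.14. The second took up 12.8% and spread the ixr1-1 libraries at 26.18, 2.109 and -22.8 in the order of their numbers.

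CESA3 itself (AT5G05170, chr5:1530174-1535414 in the positions of the deposited tables) was counted at 564, 603 and 569 CPM in Col-0 and at 508, 628 and 629 CPM in ixr1-1. The groups overlapped, and the means of 579 ± 21 and 588 ± 69 CPM (SD, n = 3) did not differ in the test (0.02 ± 0.10, adjusted p = 0.91). A point mutation need not alter the transcript level, and gene counts do not show the base, so this value does not check the genotype labels.

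In all, 3509 genes (17.2%) were called, 1996 higher in ixr1-1 (9.79%) and 1513 lower (7.42%). The changes upward were the larger ones, with 532 genes higher by at least 2-fold (2.61%) and 88 lower (0.432%), and with 155 and 7 genes past 4-fold. The lower count was 971 without Col-0 library 1 and 877 without ixr1-1 library 2. With libraries scaled by their totals alone, 74.6% of the calls were higher in place of 56.9%, since the median of all genes then moved by 0.06 on the log2 scale. Each chromosome held similar shares, with 8.85 to 10.9% of its tested genes called higher and 6.62 to 8.03% lower. Within 1 Mb of CESA3 the shares were 8.41% and 7.11% of 464 tested genes.

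The called genes were divided by rules for a tie to seeds. The 5 seed lists held 43 tested genes, of which 24 were higher and 1 lower. A further 120 genes had a seed-related word in their annotation, and 19 of them were higher and 5 lower. That class is broad, because 83 of its genes are lipid transfer or LEA hydroxyproline-rich proteins that are not particular to seeds, with 14 higher and 1 lower. Another class of 125 genes followed the summed seed storage transcripts across the 6 ixr1-1 libraries of both treatments (Pearson r of at least 0.9), and 49 were higher and 0 lower. That rule picks on these libraries and includes the defence genes WRKY40 and MYB15. Of all tested genes, seed lists included, 147 (0.721%) reached this r. Over 6 libraries unrelated genes can reach it too, so membership does not show a tie to seeds. The remaining 20091 genes met none of these rules, and they held 1904 of the 1996 genes called higher and 1507 of the 1513 called lower. Missing the rules does not show the lack of a tie. Genes just under the r cut are among them, such as MEE26 (r of 0.87) and EFR (0.86). At 2-fold or more, 480 of the 532 higher genes and all 88 lower genes were outside the seed-associated classes.

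The seed storage genes stood furthest apart. Seeds of Arabidopsis hold 12S globulins, the cruciferins, and 2S albumins, the SESA proteins, and embryo-specific promoters of such genes are known for the RY repeat and for ABRE core elements. For orientation, the 250 bases before the annotated start are shown for a cruciferin, an albumin and an oleosin gene, which had some of the largest differences of the comparison. They are RefSeq sequence of the build TAIR10.1, all on the + strand, at chr4:14087306-14087555 for CRU3, chr4:13611546-13611795 for SESA3 and chr4:12900180-12900429 for OLEO1. Capitals mark the RY repeat CATGCA and the ABRE core ACGTG on either strand (TGCATG and CACGT when read on the strand shown), and matches may overlap.
CRU3: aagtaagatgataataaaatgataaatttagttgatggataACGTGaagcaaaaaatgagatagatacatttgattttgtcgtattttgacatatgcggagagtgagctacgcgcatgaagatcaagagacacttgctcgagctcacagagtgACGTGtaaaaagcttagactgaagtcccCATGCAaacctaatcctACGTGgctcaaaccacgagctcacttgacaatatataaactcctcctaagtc
SESA3: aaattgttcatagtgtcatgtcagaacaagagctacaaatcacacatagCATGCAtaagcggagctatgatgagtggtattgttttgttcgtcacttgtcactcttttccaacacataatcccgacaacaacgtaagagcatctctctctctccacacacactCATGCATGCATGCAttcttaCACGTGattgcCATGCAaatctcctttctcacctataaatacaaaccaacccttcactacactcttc
OLEO1: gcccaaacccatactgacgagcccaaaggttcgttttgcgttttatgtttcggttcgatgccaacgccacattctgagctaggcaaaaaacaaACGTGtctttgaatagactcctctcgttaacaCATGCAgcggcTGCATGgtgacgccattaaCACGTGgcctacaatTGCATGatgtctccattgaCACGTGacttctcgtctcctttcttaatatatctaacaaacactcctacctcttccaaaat

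CRU3 held 1 RY match, SESA3 held 7, several of them overlapping in a run, and OLEO1 held 3. Of the 18 seed storage and oil body genes called higher, 16 (88.9%) had at least 1 RY match in this window, against 7.74% of the 19787 tested genes with a RefSeq start. ABRE core matches were found in 11 of the 18 (61.1%) and in 24.0% of all tested genes. A match describes the letters of the window and does not show a site in use.

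Transcripts of the storage proteins were close to 0 in Col-0 and plain in each ixr1-1 library. CRU3 (AT4G28520), a cruciferin, had 0 counts in all 3 Col-0 libraries and 55.1, 201 and 160 CPM in ixr1-1, at least 2540-fold higher against a floor of 3 counts in Col-0 as a whole (adjusted p = 0.034). CRA1 (AT5G44120, chr5:17756264-17758288), another cruciferin, was at 0, 0.211 and 0.0524 CPM in Col-0 and at 79.6, 232 and 198 CPM in ixr1-1 (10.86 ± 1.39, adjusted p = 0.0011). The albumin gene SESA3 (AT4G27160) had 3 counts over Col-0 and 21.0, 79.4 and 72.3 CPM in ixr1-1, a ratio of 1040 with a 95% counting interval of 355 to 5040 (adjusted p = 0.012). In these genes every ixr1-1 library lay above every Col-0 library, which the rule for the largest seed-associated increases required. Library 1 was the lowest of the ixr1-1 libraries. SESA1 was at 0.0682, 0.141 and 0.157 CPM in Col-0 and at 9.81, 43.3 and 35.3 CPM in ixr1-1 (7.84 ± 1.28, adjusted p = 0.0037). SESA4 (6.80 ± 1.11), SESA2 (5.98 ± 0.89) and the vicilin-like PAP85 (4.56 ± 0.75) were higher too, again with ixr1-1 library 1 the lowest.

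Of the 13 tested seed storage genes, 11 were higher and 0 lower, with a median difference of 7.84, or 6.80 with the genes of few Col-0 counts set to their bound, against -0.001 over all genes. The 2 that were not called are SESA5, with 0.136, 0.0703 and 1.73 CPM in Col-0 and 1.52, 2.96 and 3.12 CPM in ixr1-1 (1.84, adjusted p = 0.17), and the cupin gene AT4G36700. AT4G36700 went the other way, with 51.2, 45.7 and 104 CPM in Col-0 and 28.6, 23.7 and 38.8 CPM in ixr1-1 (-1.18 ± 0.42, adjusted p = 0.097). It made up most of the summed storage level of Col-0, so the sums in this paragraph are given without it. The summed level that defined the class of genes following storage transcripts, and that served as a covariate, includes it. With it, that level was 46.89 to 106.8 CPM in Col-0 and 238.8 to 721.6 CPM in ixr1-1. The sums without AT4G36700 were 1.02, 1.2 and 3.04 CPM in Col-0 and 210, 698 and 597 CPM in ixr1-1. In whole seedlings, more cells that hold a transcript and more of it per cell cannot be told apart, which holds for all results below.

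The call for CRU3 was lost when any 1 library other than ixr1-1 library 1 was left out (adjusted p of 0.060 to 0.10), and those for SESA3 and CRB did not hold without Col-0 library 1 (0.085 and 0.056) or library 3 (0.055 and 0.062). The count of 11 fell to 6 and 7 without those 2 Col-0 libraries and to 3 with limma-voom.

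**Figure D1:**
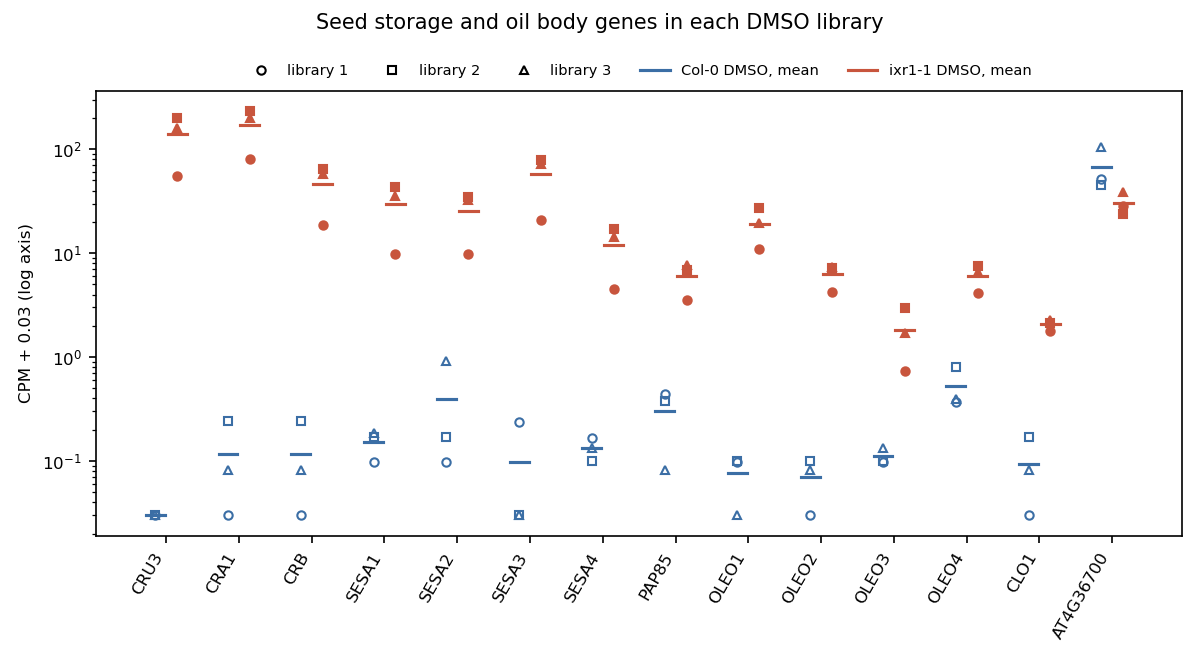
Level of 14 seed storage and oil body genes in each of the 6 DMSO libraries, as CPM plus an offset of 0.03 on a log axis, with Col-0 in blue open symbols, ixr1-1 in red filled symbols, symbol shapes for the library numbers and a line at each group's mean. Each gene but AT4G36700 has all its ixr1-1 symbols above its Col-0 symbols, and CRU3 is at 0 CPM in Col-0.

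Oil body genes showed the same direction. Oleosins coat the oil bodies of seeds, and the caleosin CLO1 is a peroxygenase of the same surface. OLEO1 (AT4G25140) was at 0.0682, 0.0703 and 0 CPM in Col-0 and at 11, 26.9 and 19.3 CPM in ixr1-1, a ratio of 516 with an interval of 142 to 4270 (adjusted p = 0.0086). OLEO2 had a ratio of 158 (43.3 to 1310), and OLEO4 was at 0.341, 0.773 and 0.367 CPM in Col-0 and 4.09, 7.54 and 6.52 CPM in ixr1-1 (3.68 ± 0.34, adjusted p = 1.7e-06). The groups did not overlap in these genes, which the naming rule required of OLEO1 and OLEO2. Of the 14 genes listed, 9 were tested, 7 were higher and 0 lower, with a median of 4.45. The count was 4 where genes needed 1 CPM in 6 libraries. Summed over the list, the level was 39.49 ± 0.82 CPM in Col-0 and 79.68 ± 15.38 CPM in ixr1-1 (SD, n = 3). The list also holds lipases, among them SDP1, which had 5684 counts over the 12 libraries against 1484 for OLEO1. The sums are thus not a level of oil body proteins alone, and their ratio does not give the size of the oleosin differences.

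Other proteins of dry seeds were partly affected. The aquaporins of seed vacuoles BETA-TIP and TIP3;1 had 0 counts in Col-0 and were at least 19.3-fold and 35.0-fold higher in ixr1-1, and the peroxiredoxin PER1 had a ratio of 118 (20.7 to 4710). SUS3, a sucrose synthase, was lower, with 31.9, 34.0 and 27.1 CPM in Col-0 and 23.7, 19.0 and 21.0 CPM in ixr1-1 (-0.56 ± 0.12, adjusted p = 0.0038), so that this list of 8 tested genes had 3 higher and 1 lower (2 lower without ixr1-1 library 1). Late embryogenesis abundant proteins protect drying embryos, and only 10 of the 33 listed had enough counts. Of these, 8 had positive differences (median 1.33), 5 were higher without overlap of libraries (as were 3584 of the 20379 genes tested), and LEA and AT4G21020 were called higher and 0 lower. The count of 2 was 4 without Col-0 library 1 or 2 and 7 without ixr1-1 library 2, and 1 gene was called lower without Col-0 library 3. The defining markers EM1 and EM6 stayed near 0 in both genotypes and were not tested. EM1 had 0 counts in Col-0 and 11 in ixr1-1, and EM6 had 6 and 5. The storage transcripts were thus plain in ixr1-1 libraries in which EM1 and EM6 were nearly absent from the counts.

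Master regulators of the embryo were mostly too low to test. Of 12 listed genes 3 were tested, and EEL, a bZIP factor of the maturing embryo, was called, with 4.16, 4.85 and 4.25 CPM in Col-0 and 7.47, 6.87 and 7.01 CPM in ixr1-1 (0.68 ± 0.14, adjusted p = 0.0018). ABI3, a B3 factor that drives storage genes, had 6 counts in the Col-0 and 18 in the ixr1-1 libraries and was not tested. ABI5, a bZIP factor of abscisic acid signalling, was at 0.818, 0.844 and 0.943 CPM in Col-0 and 1.17, 1.48 and 1.46 CPM in ixr1-1 (0.67 ± 0.29, adjusted p = 0.13).

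Genes that mobilise seed oil in the seedling differed little in size, and those called were lower in ixr1-1. The peroxisomal citrate synthase CSY2 was at 106, 105 and 108 CPM in Col-0 and 83.7, 68.0 and 81.4 CPM in ixr1-1 (-0.46 ± 0.09, adjusted p = 0.0008), and PMDH2 differed by -0.37 and ACX2 by -0.32. Isocitrate lyase (ICL) and malate synthase (MLS), the enzymes particular to the glyoxylate cycle, were not called (-0.08 ± 0.21 and 0.08 ± 0.22), and their groups overlapped. Of 14 tested genes 7 were lower and 0 higher, with a median of -0.22. That count fell to 2 without Col-0 library 1 or ixr1-1 library 2, to 4 without Col-0 library 2 or 3 or with the 6 DMSO libraries fitted alone, and to 3 with library size alone, and the call for ACX2 was lost without Col-0 library 1 or ixr1-1 library 2 (0.072 and 0.12).

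Root markers were near balance, while most photosynthesis genes of green shoots had small negative differences. The summed root markers were 3628 ± 155 CPM in Col-0 and 3567 ± 178 CPM in ixr1-1 (SD, n = 3), with 1 of 17 genes called, TIP2;3 (-0.50). The photosynthesis genes summed to 48280 ± 501 CPM in Col-0 and 42210 ± 2520 CPM in ixr1-1, and 18 of 19 had negative differences (median -0.13), 14 of them without overlap of libraries (16.1% of all genes lay lower in this way). Called lower were 4 and higher 0, among them the Rubisco subunit gene RBCS3B with 3450, 3290 and 3530 CPM against 2720, 2720 and 2220 CPM (-0.42, adjusted p = 0.0012). The count of 4 fell to 2 without Col-0 library 1 or 2 or ixr1-1 library 3 and to 1 without Col-0 library 3, while the call for RBCS3B held in each case. Every ixr1-1 library had a lower green shoot sum and a higher seed storage sum than every Col-0 library. The part of either difference in the results below was not tested by these sums. The log2 summed seed storage level, with AT4G36700 included, was also entered in the fit as a covariate. In that fit 180 genes were called higher and 30 lower. But that level does not overlap between the genotypes and so takes up most of the genotype term itself.

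Outside the seed-associated classes, the strongest upward changes were in genes of the cell surface and of defence. DAR3 (AT5G66640, chr5:26599384-26601949), which encodes a DA1-related protein, was at 1.02, 0.703 and 0.734 CPM in Col-0 and at 7.94, 12.7 and 18.7 CPM in ixr1-1 (4.01 ± 0.43, adjusted p = 0.00013). RLP21, a receptor-like protein, rose from 0.818, 0.844 and 1.1 CPM to 8.88, 10.4 and 17.3 CPM (3.68 ± 0.40, adjusted p = 0.0001). CRK6, a cysteine-rich receptor-like kinase, was at 0.205, 0.352 and 0.524 CPM in Col-0 and 4.55, 4.06 and 5.55 CPM in ixr1-1 (3.60 ± 0.32, adjusted p = 6e-07). None of these groups overlapped, which the rule for naming the 12 largest changes required, and ixr1-1 library 3 was the highest each time. RLP23, the receptor for a peptide of NLP proteins from microbes, was at 1.3, 0.844 and 0.681 CPM against 6.54, 8.74 and 16.8 CPM (3.52 ± 0.51, adjusted p = 0.0012). The transcription factor gene WRKY30 was at 1.84, 2.46 and 1.31 CPM against 11.8, 20.1 and 30.5 CPM (3.51 ± 0.44, adjusted p = 0.00072).

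NAC036, another transcription factor gene, had the smallest SE among the 12 largest changes, with 3.27, 4.22 and 2.83 CPM in Col-0 and 21.6, 29.2 and 24.1 CPM in ixr1-1 (2.9 ± 0.19, adjusted p = 2.4e-07). The remaining genes of that set were the RING/U-box gene AT4G15975 (3.39), AT5G44575 of unknown function (3.33), the FAD-binding berberine family gene AT1G26380 (3.17), the leucine-rich repeat kinase gene AT1G51820 (3.13), CYP81F2 (3.02), described below, and PDF1.2. PDF1.2, a defensin gene used as a marker of joint jasmonate and ethylene signalling, had the largest difference and the least even values. It was at 0.0682, 0.141 and 0.105 CPM in Col-0 and at 8.76, 0.668 and 8.18 CPM in ixr1-1 (5.52 ± 1.57, adjusted p = 0.045). Library 2 was far below the other ixr1-1 libraries, and the call did not hold when any 1 of the other 5 libraries was left out (adjusted p of 0.096 to 0.13).

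The strongest downward changes were in genes of metabolism and transport. QQS (AT3G30720, chr3:12349047-12349832), a gene known only from Arabidopsis thaliana that affects starch content, was at 5.66, 5.91 and 5.24 CPM in Col-0 and at 0.817, 0.716 and 0.487 CPM in ixr1-1 (-3.03 ± 0.25, adjusted p = 2.6e-07). AT4G23050, annotated as a kinase with a PAS domain, was at 40.5, 38.7 and 37.8 CPM against 11.4, 11 and 9.54 CPM (-1.87 ± 0.09, adjusted p = 2e-10). The replicates of both genes lay close together and the genotypes far apart. SAG29, a sugar transporter of the SWEET family, was at 35.8, 40.1 and 49.9 CPM against 11.1, 6.25 and 8.67 CPM (-2.36 ± 0.32, adjusted p = 0.0012). GA2OX7, an enzyme that inactivates gibberellin precursors, was at 7.84, 10.3 and 9.59 CPM against 2.57, 2.01 and 2.63 CPM (-2 ± 0.16, adjusted p = 2.6e-07).

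AOX1B, an alternative oxidase, fell from 12.2, 7.10 and 6.66 CPM to 3.15, 0.621 and 2.14 CPM (-2.38 ± 0.45, adjusted p = 0.0045), and its groups did not overlap. The glutathione transferase gene GSTU25 fell from 248, 198 and 216 CPM to 80.7, 34.8 and 41.5 CPM (-2.11 ± 0.38, adjusted p = 0.0057). The 12 largest decreases were completed by AT1G03990 (-1.98), the anion channel homologue SLAH1 (-1.78), the phosphate starvation RNA IPS1 (-1.71), the cysteine protease gene AT1G29090 (-1.69), the pyruvate decarboxylase PDC1 (-1.62) and the transporter UMAMIT36 (-1.61). In each of them the 3 ixr1-1 libraries lay below the 3 Col-0 libraries, which the rule for naming them required.

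**Figure D2:**
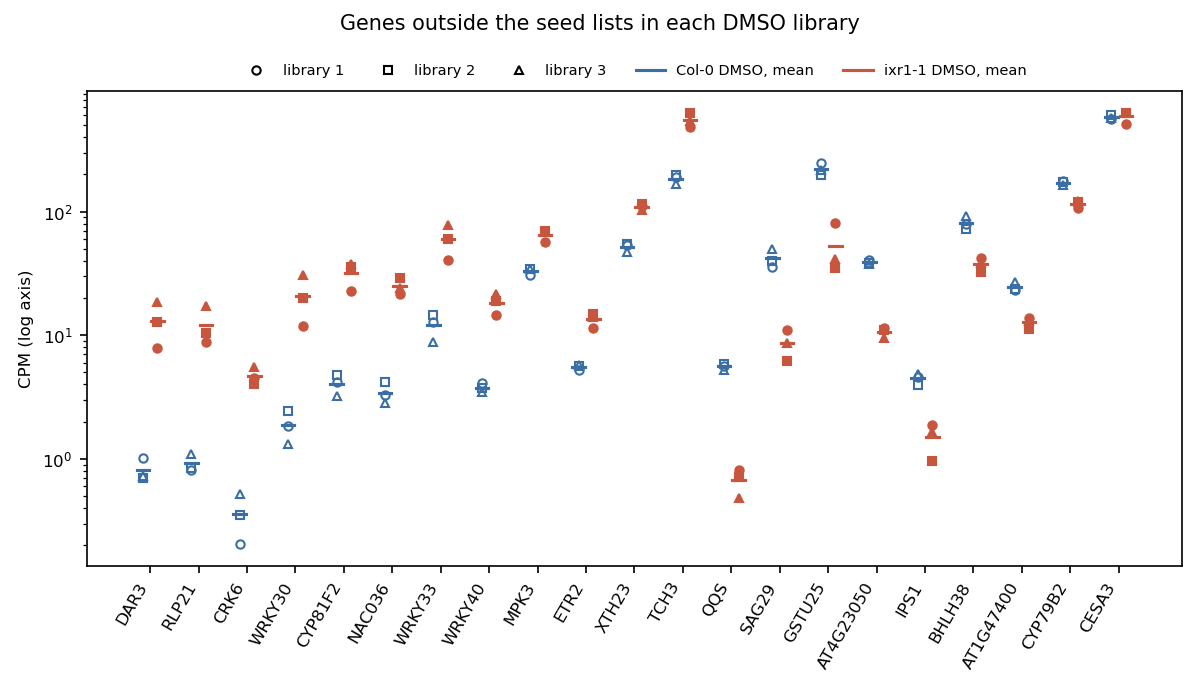
CPM of CESA3 and 20 genes outside the seed lists in each DMSO library on a log axis, drawn as for the seed genes. The genotypes are apart in each gene but CESA3, and ixr1-1 library 1 (circles) is the lowest of its group in most of the genes that were higher.

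Receptors and signalling parts of pattern-triggered immunity, which recognises microbial molecules at the cell surface, were broadly higher. Of 25 tested genes 18 were higher and 0 lower, with a median of 0.57. FLS2, the flagellin receptor (AT5G46330, chr5:18791736-18795546), was at 9.75, 12.2 and 9.43 CPM in Col-0 and 23.0, 28.3 and 38.4 CPM in ixr1-1 (1.52 ± 0.23, adjusted p = 0.0013). The chitin receptor LYK5 (1.32), the bacterial EF-Tu receptor EFR (1.02) and their partners BIK1 (0.95), CERK1 (0.56) and BAK1 (0.40) were higher as well. MPK3, a MAP kinase of the same pathway (chr3:16756770-16758698), was at 30.8, 34.1 and 34.4 CPM against 56.3, 69.7 and 69.3 CPM (0.98 ± 0.10, adjusted p = 3.4e-06). RBOHD, the oxidase of the defence burst, was at 78.1, 76.3 and 68.4 CPM against 97.0, 108 and 126 CPM (0.57 ± 0.09, adjusted p = 0.00031).

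The calcium-dependent kinase CPK28 (0.87) and the calcium channel CNGC20 (0.96) were also higher, with no overlap between the genotypes. Over the list, 20 of 25 genes were higher without overlap and 0 lower, against 3584 and 3281 of the 20379 genes tested. The peptide precursor PROPEP3 was at 0.955, 1.27 and 0.734 CPM against 2.10, 3.1 and 6.23 CPM (1.96 ± 0.34, adjusted p = 0.00061). Its receptors PEPR1 and PEPR2, the kinase MPK6 and the precursors PROPEP1, PROPEP4, PROPEP5 and PROPEP6 were not called.

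Marker genes induced by microbial patterns were among the larger changes, with 6 of 10 higher, 0 lower and a median of 1.41. CYP81F2 (AT5G57220, chr5:23187840-23189857), a cytochrome P450 that modifies indole glucosinolates for defence, was at 4.16, 4.78 and 3.25 CPM in Col-0 and at 22.9, 35.9 and 37.6 CPM in ixr1-1 (3.02 ± 0.33, adjusted p = 0.0003). WRKY33, a regulator of camalexin synthesis, was at 12.9, 14.6 and 8.75 CPM against 40.6, 60.5 and 78.0 CPM (2.33 ± 0.29, adjusted p = 0.00067). WRKY53 was at 5.66, 6.68 and 5.29 CPM against 22.4, 34.2 and 52.5 CPM (2.64 ± 0.33, adjusted p = 0.00066), though 20.5% of its length overlaps AT4G23800 on the other strand. The flagellin-induced kinase FRK1 (1.90) and the salicylate regulator CBP60G (1.85) were higher too, and in all 5 genes the lowest ixr1-1 library was above the highest Col-0 library. Over the list, 7 of 10 genes lay higher in this way and 0 lower, against 3584 and 3281 of the 20379 genes tested.

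Rapid stress transcription factors followed, with 13 of 23 tested genes higher, 0 lower and a median of 0.66. WRKY40, which moderates defence, was at 4.09, 3.73 and 3.46 CPM against 14.5, 18.9 and 21.5 CPM (2.30 ± 0.18, adjusted p = 4.9e-07). The zinc finger gene ZAT10 was at 2.93, 2.46 and 1.78 CPM against 6.89, 10.6 and 9.45 CPM (1.97 ± 0.22, adjusted p = 1.3e-05). NAC062 (0.68) and WRKY18 (0.64) changed less. Over the 3 lists together, 37 of 58 tested genes were higher and 0 lower, against 9.79% and 7.42% of all genes. No left-out library moved the count of any of these 3 lists by more than 1.5 times, but with the seed storage covariate only 2, 1 and 4 of their genes were called.

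WRKY factors are known to bind the W-box. The promoters of CYP81F2 (chr5:23187590-23187839) and WRKY33 (chr2:16107985-16108234) are shown because both genes rose strongly and each holds 2 matches. They are RefSeq sequence of TAIR10.1 on the + strand, 250 bases before the RefSeq start, and capitals mark TTGACC or TTGACT on either strand (GGTCAA and AGTCAA when read on the strand shown).
CYP81F2: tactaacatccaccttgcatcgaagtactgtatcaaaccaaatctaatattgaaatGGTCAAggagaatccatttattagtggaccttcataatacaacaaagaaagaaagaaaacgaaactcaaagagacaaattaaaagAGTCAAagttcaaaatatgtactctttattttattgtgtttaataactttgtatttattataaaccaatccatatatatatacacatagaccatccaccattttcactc
WRKY33: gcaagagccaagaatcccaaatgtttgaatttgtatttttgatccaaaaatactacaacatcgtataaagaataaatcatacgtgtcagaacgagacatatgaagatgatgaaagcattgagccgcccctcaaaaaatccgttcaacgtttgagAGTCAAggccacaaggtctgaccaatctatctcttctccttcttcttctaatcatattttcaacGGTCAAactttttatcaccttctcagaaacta

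W-box matches were found in 17 of the 37 immunity and stress genes called higher (45.9%) and in 246 of 466 genes with a RefSeq start that were not seed-associated and higher by at least 2-fold (52.8%). The share was 28.5% over all tested genes and 22 of 86 (25.6%) for genes lower by at least 2-fold. In the genes lower by at least 2-fold, ABRE core matches were found in 36.0%. The GCC box GCCGCC, searched on both strands, was found in 3 of the 37 immunity and stress genes (8.11%) and in 1.90% of all. RY matches were found in 7 of these 37 genes (18.9%) and in 16.3% of the genes lower by at least 2-fold. Their share was 7.74% over all tested genes. These shares are descriptions of sets that were defined by the calls.

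**Figure D3:**
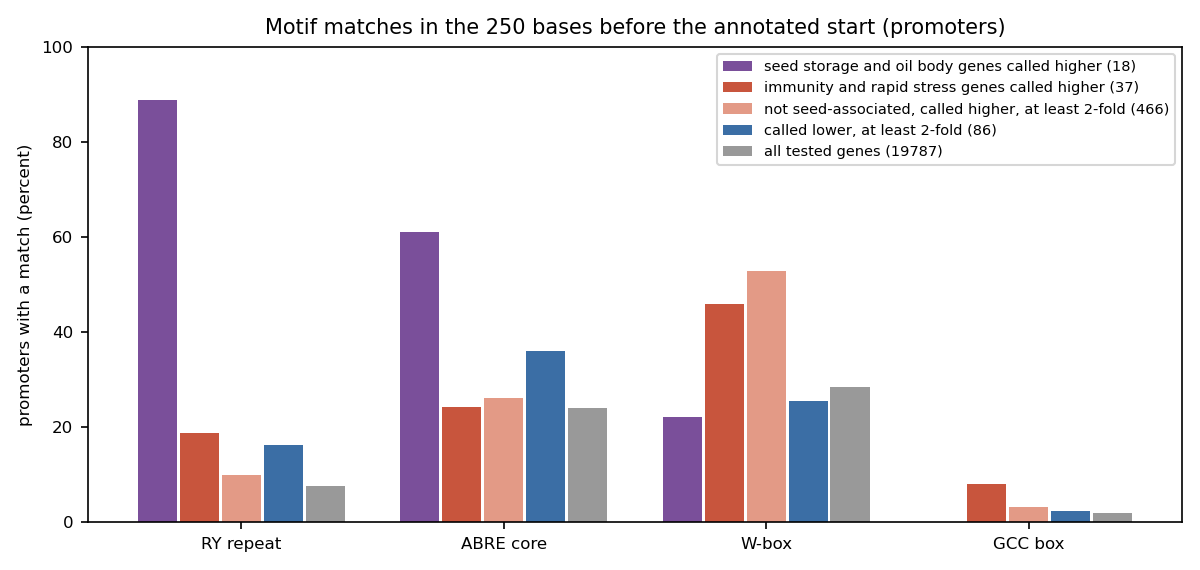
Percent of promoters (the 250 bases before the annotated start) with at least 1 match to each of 4 motifs, for 5 sets of genes with the number of promoters in brackets. The RY repeat is at 88.9% in the seed storage and oil body genes called higher and 7.74% in all tested genes, and the W-box is at 52.8% in genes that were higher by at least 2-fold and not seed-associated and 28.5% in all.

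Families of surface receptors and resistance proteins, taken from the annotation with results of these data known, are read against 9.79% of all tested genes higher and 7.42% lower. Cysteine-rich receptor-like kinases led, with 27 of 33 tested genes higher and 0 lower (median 1.04). Intracellular receptors with a TIR domain had 42 of 90 higher and 0 lower (median 0.40), and those with a coiled-coil domain 7 of 21 higher and 0 lower. Receptor-like proteins had 17 of 39, WRKY factors 22 of 52 and VQ-motif proteins, which partner WRKY factors, 10 of 21 higher, each with 0 lower. Lectin-domain kinases had 17 of 53 higher and 1 lower, and leucine-rich repeat kinases 39 of 151 higher and 7 lower. AP2 and ERF factors had 23 of 66 higher and 1 lower, EF-hand calcium sensors 16 of 49 and 1, protein phosphatases 2C 15 of 54 and 4, and NAC factors 13 of 54 and 3. C1-domain proteins, with 11 of 98 higher (11.22%) and 0 lower, had a share of higher genes near that of all genes. Arabinogalactan proteins had 8 of 33 higher and 2 lower, and lipid transfer and 2S albumin proteins 12 of 54 and 1.

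Other families held more lower than higher calls or similar numbers of both. Pentatricopeptide and tetratricopeptide repeat proteins, many of which process RNA in organelles, had 60 of 498 tested genes lower and 8 higher (median -0.10). Heat shock proteins had 16 of 64 lower and 4 higher, and tau glutathione transferases 6 of 25 and 2. Ribosomal proteins had few calls in either direction, with 13 of 313 lower (4.15%) and 2 higher (0.639%), both below the shares of all genes. The remaining families held similar numbers of both. Cytochromes P450 had 25 of 172 lower and 20 higher, and glycosyltransferases 16 of 113 and 14. Class III peroxidases had 6 of 53 and 7, and xyloglucan endotransglucosylases 3 of 25 and 2. In each of these families the share of lower genes was above the 7.42% of all genes. It was 14.53% for cytochromes P450, 14.16% for glycosyltransferases and 11.32% for class III peroxidases.

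Ethylene genes were higher from synthesis to response, with 13 of 24 tested genes higher, 0 lower and a median of 0.46. The receptor genes ETR2, ERS1 and ERS2 rose. ETR2 (chr3:8254663-8257735) was at 5.25, 5.62 and 5.77 CPM in Col-0 and 11.4, 14.9 and 14.0 CPM in ixr1-1 (1.3 ± 0.15, adjusted p = 8.2e-06), and ERS2 (1.33) and ERS1 (0.55) showed the same lack of overlap. Over the list, 15 of 24 genes were higher without overlap and 1 lower, against 3584 and 3281 of the 20379 genes tested. ACO4, an enzyme of the last step of synthesis, was at 191, 216 and 209 CPM against 299, 325 and 298 CPM (0.58 ± 0.10, adjusted p = 0.00042). Downstream, the kinase CTR1 (0.35), the F-box gene EBF1 (0.43) and the response factors ERF2 (2.5), ERF11 (1.89), ERF5 (1.19) and ERF6 (1.16) were higher. EIN2, the central transducer, was not called (-0.08, adjusted p = 0.42).

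Jasmonate genes had 11 of 29 tested genes higher and 2 lower. The JAZ repressors, which jasmonate itself induces, made up several of the calls. JAZ6 was at 44.3, 45.1 and 45.4 CPM in Col-0 and 70.0, 67.9 and 81.8 CPM in ixr1-1 (0.70 ± 0.09, adjusted p = 2.6e-05), and JAZ10 (1.18), JAZ7 (2.10) and JAZ8 (2.77) were higher at lower counts. The lipoxygenase LOX4 (1.31), which acts in jasmonate synthesis, and the jasmonate oxidase CYP94C1 (1.12) were higher, while another synthesis enzyme, AOC2 (-0.54), and the transcription factor MYC4 (-0.43) were lower. The defensin PDF1.3 repeated the uneven values of PDF1.2, with 2 counts in Col-0 and 5.14, 0.525 and 7.30 CPM in ixr1-1, a ratio of 78.4 (21.3 to 654, adjusted p = 0.04). The count of 11 fell to 6, 7 and 6 without Col-0 library 2, Col-0 library 3 and ixr1-1 library 3, and the call for MYC4 was lost without Col-0 library 2 or ixr1-1 library 3 (0.063 and 0.066). That for PDF1.3 was lost when any 1 library other than ixr1-1 library 2 was left out (0.081 to 0.13).

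Salicylate genes had 6 of 20 higher and 1 lower. EDS1 was at 34.6, 29.6 and 32.7 CPM in Col-0 and 45.5, 55.8 and 54.3 CPM in ixr1-1 (0.69 ± 0.12, adjusted p = 0.0013), and its partners PAD4 (0.54) and SAG101 (0.59) rose with it. PBS3, an enzyme of salicylate synthesis, was higher at low counts (2.47 ± 0.50, adjusted p = 0.0017). The pathogenesis-related genes diverged: PR2 was at 0.341, 0.492 and 0.472 CPM against 1.75, 1.38 and 4.58 CPM (2.44 ± 0.60, adjusted p = 0.012), but PR1 was at 1.16, 1.83 and 0.419 CPM against 0.234, 0.0477 and 0.195 CPM (-3.01 ± 0.69, adjusted p = 0.0051). PR1 rests on 51 counts in Col-0 and 5 in ixr1-1. Without ixr1-1 library 2 the adjusted p of PR1 was 0.070, and without Col-0 library 1 that of PR2 was 0.051.

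None of the 15 genes tested for the synthesis of primary wall cellulose was called (median 0.02). At an unadjusted p under 0.05 there was 1, AT1G45688 (0.16), against 30.2% of all genes, and DESeq2 and limma-voom also called 0. CESA1 was at 587, 632 and 597 CPM in Col-0 and 473, 554 and 573 CPM in ixr1-1 (-0.18 ± 0.09, adjusted p = 0.17). CESA6 was at 463, 507 and 451 CPM against 452, 529 and 529 CPM (0.09 ± 0.09, adjusted p = 0.57), and the endoglucanase KOR1 differed by 0.09 ± 0.09. Genes of the secondary wall had 1 of 16 called, the xylan synthesis gene FRA8, which was lower (-0.29, adjusted p = 0.031) and whose call did not hold without Col-0 library 1 or 2 or ixr1-1 library 2 or 3 (0.11, 0.081, 0.11 and 0.082). Without Col-0 library 3, 2 were lower.

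Of 25 tested enzymes that loosen or modify the wall, 6 were higher and 3 lower. The xyloglucan-modifying enzyme XTH23 (chr4:13128643-13129884) was at 53.7, 54.4 and 46.9 CPM in Col-0 and 110, 115 and 103 CPM in ixr1-1 (1.08 ± 0.08, adjusted p = 1.6e-07). XTH19 of the same family was at 85.8, 102 and 70.6 CPM against 299, 471 and 272 CPM (2.02 ± 0.30, adjusted p = 0.0023). Expansin EXPA1 was at 300, 308 and 311 CPM against 418, 410 and 397 CPM (0.41 ± 0.06, adjusted p = 8.6e-05), and the pectin methylesterase PME41 rose by 1.54. The lower calls were small, with EXPA10 at -0.39, XTH20 at -0.42 and EXPA5 at -0.29. The higher count was 10 without Col-0 library 2, and the lower count was 1 without Col-0 library 2 or 3 or ixr1-1 library 2 and at most 2 without any other library.

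Among genes that sense wall integrity, 7 of 22 were higher and 1, the kinase FEI1 (-0.23), lower (median 0.10). The call for FEI1 was lost without Col-0 library 2 or 3 or ixr1-1 library 2 or 3. The wall-associated kinase WAK2 was at 17, 16.8 and 20.5 CPM in Col-0 and 42.9, 42.2 and 56.5 CPM in ixr1-1 (1.37 ± 0.13, adjusted p = 8.2e-06), and WAK1 differed by 0.85. MCA2, a calcium channel gated by mechanical stress, was at 6.07, 7.03 and 4.72 CPM against 13.9, 16.7 and 13.4 CPM (1.34 ± 0.14, adjusted p = 5.1e-06). The leucine-rich repeat kinase gene AT4G08850 was at 120, 116 and 113 CPM against 252, 312 and 515 CPM (1.63 ± 0.26, adjusted p = 0.003). In these 4 genes the genotypes did not overlap. Over the list, 8 of 22 genes were higher without overlap and 3 lower, against 3584 and 3281 of the 20379 genes tested. The receptor kinase THE1, which acts when cellulose synthesis is impaired, was at 150, 144 and 149 CPM against 165, 166 and 179 CPM (0.20 ± 0.06, adjusted p = 0.034), and FER, its relative, was not called (0.18, adjusted p = 0.19). The call for THE1 held only without ixr1-1 library 1, and was lost without Col-0 library 1, 2 or 3 (0.071, 0.11 and 0.082) and without ixr1-1 library 2 or 3 (0.057 and 0.12).

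Touch and calcium genes were higher in 5 of 10 cases and lower in 0 (median 0.70). TCH3, a calmodulin-like protein (chr2:17137829-17139612), was at 189, 199 and 167 CPM in Col-0 and 480, 632 and 539 CPM in ixr1-1 (1.57 ± 0.17, adjusted p = 0.00011). The EF-hand gene AT5G39670 was at 4.23, 6.33 and 3.67 CPM against 9.34, 12.6 and 12.1 CPM (1.3 ± 0.19, adjusted p = 0.00026). CML42 (0.49) and TCH2 (0.51) changed less, and AT3G47480, another EF-hand gene, rose by 1.49. The libraries of the genotypes did not overlap in these 5 genes, all of them called. Over the list, 7 of 10 genes were higher without overlap and 0 lower, against 3584 and 3281 of the 20379 genes tested.

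Indole glucosinolates are sulfur-rich defence compounds made from tryptophan, and several of their synthesis genes were lower, with 6 of 13 lower and 3 higher. CYP79B2, the first enzyme of the route (chr4:18525246-18527579), was at 176, 172 and 165 CPM in Col-0 and 106, 119 and 122 CPM in ixr1-1 (-0.57 ± 0.08, adjusted p = 7.1e-05). Its homologue CYP79B3 (-0.55), the next enzyme CYP83B1 (-0.44) and the regulator MYB34 (-0.30) were lower as well. PEN2, the enzyme that activates these compounds against fungi, was at 88.4, 93.6 and 88.4 CPM against 169, 232 and 310 CPM (1.4 ± 0.22, adjusted p = 0.0024), and the regulator MYB51 was higher (0.74). PAD3, the last enzyme of camalexin synthesis, was at 56.4, 54.6 and 54.4 CPM against 77.8, 27.3 and 39.9 CPM and was not called.

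Aliphatic glucosinolate genes had 3 of 14 lower and 1 higher. AOP2 (-0.51) and the sulfotransferase SOT17 (-0.44) were lower, and AOP3 had 1 count in Col-0 and 45 in ixr1-1, a ratio of 54.3 (9.26 to 2190, adjusted p = 0.0026). Phenylpropanoid and lignin genes had 2 of 15 higher (13.33%) and 2 lower (13.33%), and flavonoid genes 2 of 16 higher (12.5%) and 3 lower (18.75%), against 9.79% and 7.42% of all genes. These few calls were not stable. For the phenylpropanoid list the higher count was 0 without Col-0 library 3 and 1 without any other library but Col-0 library 1, and the lower count was 0 without ixr1-1 library 3 and 1 without Col-0 library 1 or 2 or ixr1-1 library 1. For the flavonoid list the higher count was 0 or 1 without any library but ixr1-1 library 2, and without that library 4 genes were higher and 6 lower.

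Detoxification genes were lower in 8 of 20 cases and higher in 4 (median -0.24). Of the 4 higher genes, 2 are in the class that followed the summed seed storage transcripts. UGT74E2, which conjugates an auxin, was at 190, 203 and 174 CPM in Col-0 and 101, 90.4 and 69.2 CPM in ixr1-1 (-1.12 ± 0.14, adjusted p = 0.00024). Catalase CAT2 was at 1880, 2150 and 1660 CPM against 1300, 1290 and 1160 CPM (-0.60 ± 0.11, adjusted p = 0.0011), and GSTU24 differed by -1.11. The cytochrome P450 CYP81D8 (2.18), the alternative oxidase AOX1A (0.95) and GSTU12 (1.63) were higher, so that AOX1A and AOX1B changed in opposite directions.

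The lists of hormone genes were short, and their counts are read against 9.79% of all tested genes higher and 7.42% lower. The brassinosteroid, gibberellin and cytokinin lists were above both shares, and the auxin list was below both. The abscisic acid list was below the share of higher genes and above that of lower genes. Several of these counts are of 1 or 2 genes. In the brassinosteroid list 3 of 10 were lower, all of synthesis, with BR6OX2 at 55.0, 69.6 and 61.4 CPM in Col-0 and 39.9, 38.0 and 31.9 CPM in ixr1-1 (-0.76 ± 0.09, adjusted p = 9.5e-06) and CPD at -0.68, and 2 were higher, the response factors BES1 (0.52) and BZR1 (0.43). Gibberellin genes had 4 of 17 lower and 2 higher, the latter 4 without ixr1-1 library 1 and 1 without Col-0 library 2 or 3 or ixr1-1 library 2 or 3. GA3OX1, which makes active gibberellin, was at 69.3, 47.7 and 65.9 CPM against 27.8, 32.7 and 18.4 CPM (-1.19 ± 0.26, adjusted p = 0.014), and GA20OX1 (-1.08) and the receptor GID1A (-0.62) were lower while GASA6 (0.66) was higher. Cytokinin genes had 2 of 9 higher, ARR16 (1.08) and CKX4 (0.83), and 1 lower, ARR9 (-0.53). Auxin response genes had 1 of 15 called, GH3.5 (0.62), whose call did not hold without ixr1-1 library 2 (0.056). Abscisic acid and osmotic stress genes had 1 of 19 higher, RD29B (1.65), and 2 lower, HAB1 (-0.24) and ABF3 (-0.47). The lower count was 1 without Col-0 library 1 or 2 or ixr1-1 library 2 or 3, and 2 were higher without Col-0 library 2.

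Iron deficiency genes were lower in ixr1-1, with 9 of 17 lower, 1 higher and a median of -0.47. BHLH38, a transcription factor that turns on iron uptake (chr3:21084110-21085150), was at 79.3, 72.1 and 91.7 CPM in Col-0 and 42.2, 32.7 and 38.6 CPM in ixr1-1 (-1.12 ± 0.12, adjusted p = 2.6e-05), and BHLH39 differed by -0.47. AT1G47400 was at 23.3, 23.8 and 27.0 CPM against 13.9, 11.3 and 13 CPM (-0.98 ± 0.10, adjusted p = 3e-06). BTS, a ubiquitin ligase that restrains the response, was at 292, 258 and 273 CPM against 176, 186 and 165 CPM (-0.64 ± 0.10, adjusted p = 0.0004), and the metal chelator synthase NAS4 was lower (-0.62). The uptake genes themselves were not called: the transporter IRT1 was at 119, 140 and 148 CPM against 87.2, 106 and 121 CPM (-0.37, adjusted p = 0.074), and the reductase FRO2 differed by -0.47 (adjusted p = 0.12). The ferritin FER4, which stores iron, was higher (0.49, adjusted p = 0.016), a call lost without Col-0 library 3 or ixr1-1 library 3 (0.097 and 0.067).

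Phosphate starvation genes had 5 of 11 lower and 0 higher (median -0.32). The noncoding RNA IPS1, which sequesters a microRNA, was at 4.64, 3.94 and 4.87 CPM in Col-0 and 1.87, 0.955 and 1.66 CPM in ixr1-1 (-1.71 ± 0.27, adjusted p = 0.00018). Its relative AT4 was at 67.2, 72.1 and 72.0 CPM against 41.5, 39.9 and 46.2 CPM (-0.73 ± 0.10, adjusted p = 7.5e-05), and the galactolipid synthase MGD3 was lower (-1.53). In each of the 3 genes no ixr1-1 library reached the lowest Col-0 library, which the naming rule required of IPS1. Over the list, 5 of 11 genes lay lower in this way, against 16.1% of all genes. The count of lower calls fell to 3 without Col-0 library 1 or ixr1-1 library 3. Nitrate genes had 1 of 9 higher, the transcription factor LBD39 (0.42), and 1 lower, the transporter NRT2.1 (-1.1, adjusted p = 0.022). These shares of 11.11% each way were near the 9.79% and 7.42% of all genes. LBD39 is also in the class that followed the summed seed storage transcripts. The call for NRT2.1 was lost without Col-0 library 1 or 3 or ixr1-1 library 1 or 2 (adjusted p of up to 0.14), and 2 genes were higher without ixr1-1 library 1.

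Several lists held few calls or none. Clock genes (11), cell cycle genes (17) and reference genes (8) had 0 called by edgeR, with 3, 1 and 3 at an unadjusted p under 0.05. DESeq2 called 1 clock gene lower and none of the others, and limma-voom called 0. Each list had 1 lower call without 1 library, Col-0 library 3 for the clock, Col-0 library 2 for the cell cycle and ixr1-1 library 3 for the reference genes. The reference genes all had negative differences, from -0.21 to -0.02, with a median of -0.16, a shift of the same size as many of the small decreases reported above. Hypoxia genes had 3 of 12 lower, with PDC1 at 44.8, 29.6 and 47.9 CPM in Col-0 and 16.2, 13.1 and 11 CPM in ixr1-1 (-1.62 ± 0.24, adjusted p = 0.0016), and 2 higher. The lower count was 1 without ixr1-1 library 2, and the higher count was 0 without that library and 1 without any other but ixr1-1 library 1. Heat shock and unfolded protein genes had 2 of 13 lower and 2 higher (15.38% each). HSP70 differed by -0.76 (adjusted p = 0.009). BZIP60, a factor of the unfolded protein response, was at 34.8, 39.4 and 33.4 CPM against 56.5, 64.0 and 63.8 CPM (0.78 ± 0.09, adjusted p = 1.3e-05). The lower count was 1 without Col-0 library 1 or 2, and the higher count 1 without Col-0 library 3 or ixr1-1 library 3.

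**Figure D4:**
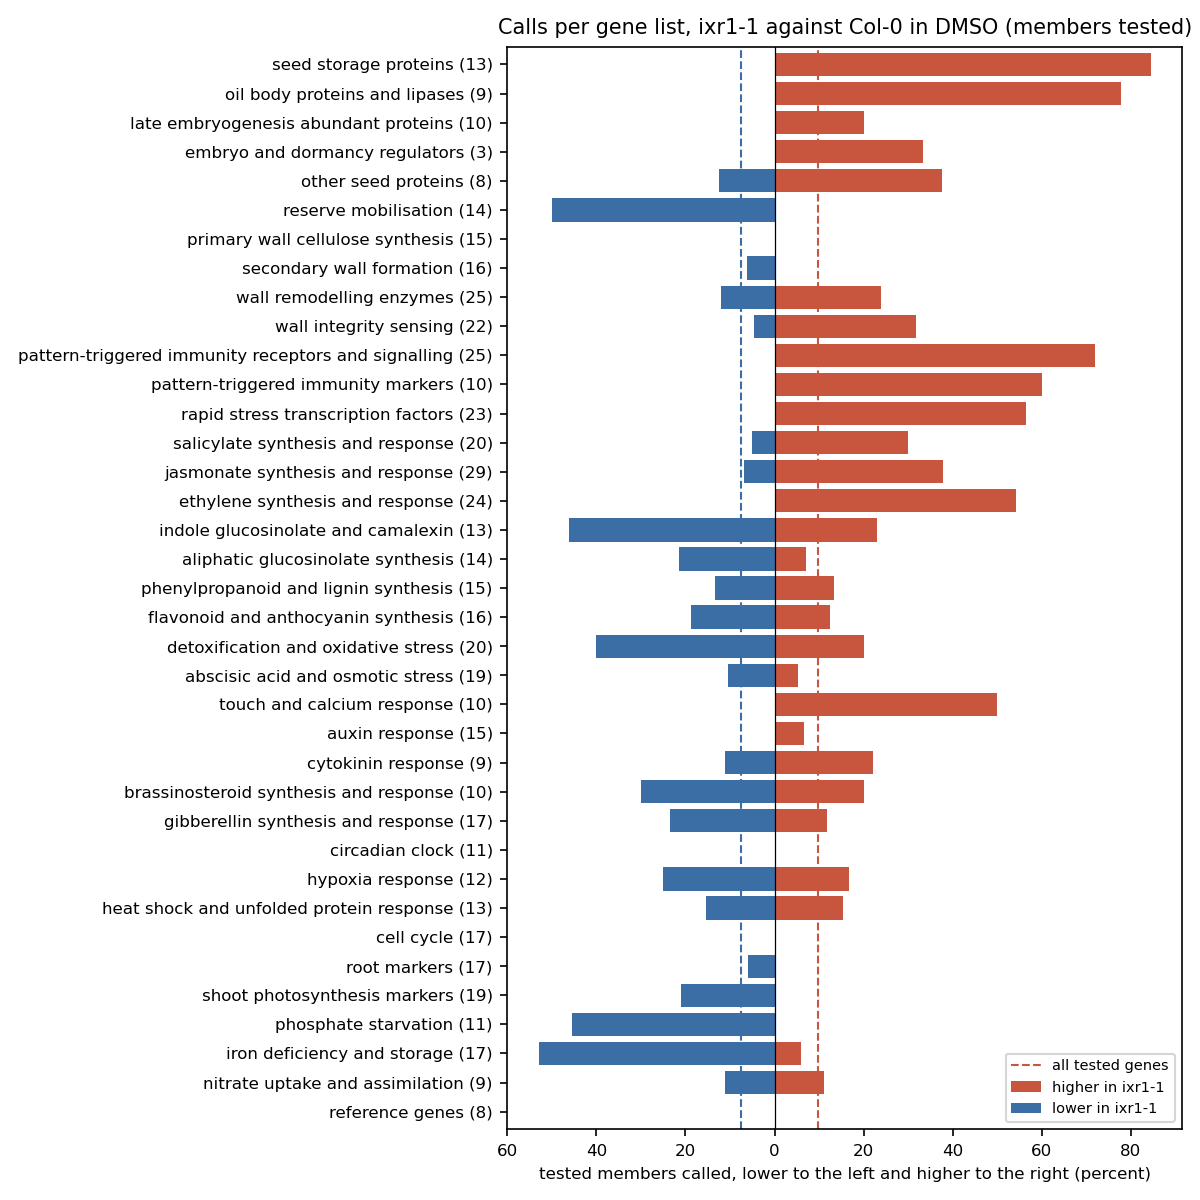
Percent of the tested members of each gene list called lower (blue, to the left) and higher (red, to the right) in ixr1-1, with the number tested in brackets and dashed lines at the shares of all tested genes, 7.42% and 9.79%. The seed storage and oil body lists reach furthest to the right, followed by the immunity, rapid stress, ethylene and touch lists, while the iron, reserve mobilisation, indole glucosinolate and phosphate lists reach furthest to the left.

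The 3 ixr1-1 libraries did not show the changes to the same degree. Among the 480 genes that were higher by at least 2-fold and not seed-associated, library 1 was the lowest of the ixr1-1 libraries in 328 and library 3 the highest in 286, with median log2 differences from the Col-0 mean of 1.05, 1.28 and 1.4 in libraries 1, 2 and 3 (on CPM plus 0.5). For the immunity receptors the medians were 0.38, 0.61 and 0.78, and for the seed storage list 3.57, 4.86 and 4.76. The order was not shared by all, since the iron list was at -0.36, -0.48 and -0.38 and the 88 genes lower by at least 2-fold at -1, -1.18 and -1.1. Library 1 thus had the smallest median in the immunity receptor and seed storage lists, and also in the oil body list (1.72, 2.57 and 2.28). In the late embryogenesis abundant list it had the largest (1.09, 0.32 and 0.77). Without both ixr1-1 libraries of number 1, the one in DMSO and the one in isoxaben, 1932 genes were higher and 1276 lower.

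The 6 isoxaben libraries gave the genotype difference a second time, in seedlings split from the same flasks per the labels. Any response to isoxaben, of Col-0 or of ixr1-1, enters this difference, so it is not a repeat of that in DMSO. There, 1410 genes were higher (6.92%) and 1192 lower (5.85%). Of the 1996 genes higher in DMSO, 1907 (95.54%) had a positive difference in isoxaben, 1006 (50.4%) were called in the same direction and 15 in the opposite one, and the median difference was 0.62 in DMSO and 0.38 in isoxaben. Of the 1513 genes lower in DMSO, 1478 (97.69%) had a negative difference in isoxaben, 845 (55.85%) were called in the same direction and 1 in the opposite one, with medians of -0.35 and -0.29. The first median of each pair is enlarged by the choice of genes on the DMSO libraries. A test of the difference between the 2 treatments (the interaction) called 64 genes, 52 with a more negative (0.255%) and 12 with a more positive difference (0.0589%) in isoxaben. That test took the 12 libraries as independent, although seedlings of 1 flask were split between the treatments per the labels. Flask numbers are not given, and no such pairing was fitted. With the replicate number as a block, 99 genes were called. The interaction count was 28 without Col-0 library 3 and 22 without ixr1-1 library 2. Among the genes named here, the interaction was 0.17 ± 0.12 for AT4G23050, 0.01 ± 0.21 for ETR2, 0.09 ± 0.17 for BHLH38, -0.61 ± 0.44 for QQS and -0.71 ± 0.28 for NAC036, and none of them was called, which does not show that the differences were alike. It was called for WRKY40 and MPK3, whose differences in isoxaben were 0.30 and 0.22.

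By list, the counts in isoxaben can be set beside those in DMSO. The immunity receptors had 9 higher and 4 lower in place of 18 and 0, with a median of 0.22 in place of 0.57, and the rapid stress factors 3 and 2 in place of 13 and 0, with a median of 0.06 in place of 0.66. The interaction was called for 4 and 6 genes of these lists. The immunity markers had 3 higher in place of 6, the ethylene genes 7 higher and 1 lower in place of 13 and 0, the touch genes 2 and 1 in place of 5 and 0 and the salicylate genes 3 and 4 in place of 6 and 1, with 0, 1, 2 and 2 interaction calls. Jasmonate genes had 9 higher and 1 lower in place of 11 and 2. Seed storage (8 in place of 11 higher), oil body (7 and 7 higher) and iron genes (9 and 9 lower) had 0 interaction calls, and 8 shoot photosynthesis genes were lower in place of 4. No list as a whole was tested for a difference between the treatments.

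**Figure D5:**
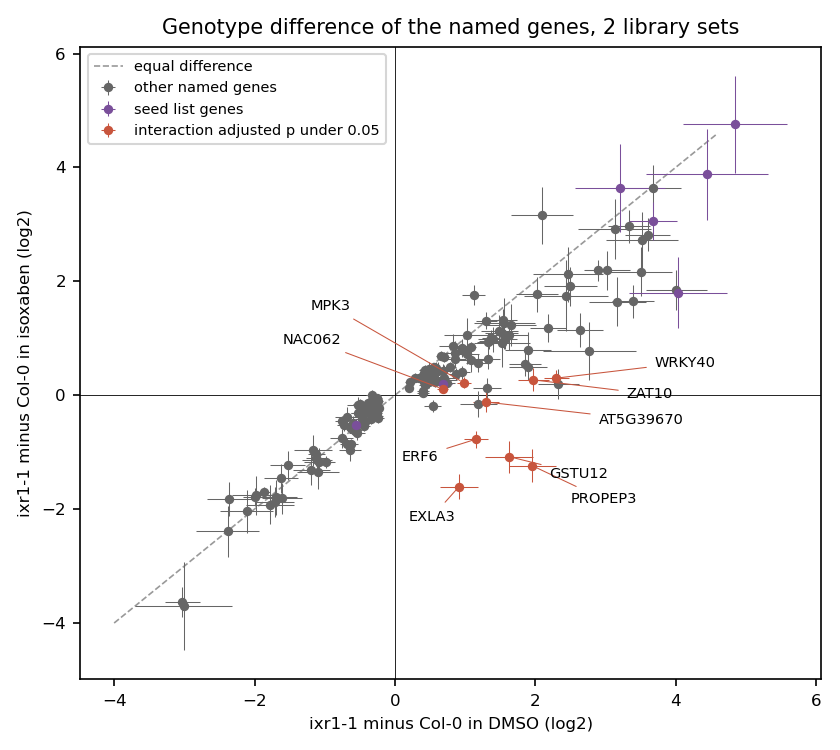
Log2 difference between ixr1-1 and Col-0 in DMSO (horizontal) and in isoxaben (vertical) for the 163 named genes called in DMSO with differences under 5 on both axes, with bars of 1 SE and a dashed line of equal differences. The 9 labelled genes, whose interaction passed the threshold, lie below the line.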

How the data were processed

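Messenger RNA of whole seedlings was sequenced after a stranded library preparation (labels' protocols). Software listed in the submitters' processing notes, with no roles, is STAR (version 2.4.1) and featureCounts (1.4.6) beside bcl2fastq and FastQC. No genome build, annotation or strand setting is named (not given in the sources used here). Raw counts per gene were deposited by the authors, with 0 unnamed features, 1 table per library, and no normalization per the file headers. Between the tables' exons lay 120956 gaps, and 97.7% of them had the splice signals GT and AG on the build TAIR10.1. Gene names came from RefSeq for 32835 of 33602 genes.

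All 12 libraries were fitted in 1 model with a term per group (edgeR 4.0.16, filterByExpr, TMM, glmQLFit with robust estimation, glmQLFTest, R 4.3.3), and the contrast was ixr1-1 minus Col-0 in DMSO. P-values were adjusted over the 20379 tested genes by Benjamini-Hochberg at 0.05. SE is the log2 difference divided by the root of F, with a median of 0.108. Floors (3 counts) and 95% intervals cover counting error only. The fit was also run on counts simulated with known changes, independent libraries and the spread estimated here. Such a run cannot check whether the real libraries are independent.

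Members and gene lists (37 lists, 618 loci, 558 tested, and 23 annotation families) were chosen with earlier results of these data known. Named genes are CESA3, the 12 largest changes each way that passed the threshold without overlap of libraries, outside the seed-associated classes and with a mean log2 CPM no lower than 1, the 10 largest seed-associated increases, genes with at most 3 counts in 1 genotype, and up to 4 members of each list. Further list members were added after their values were seen, so that pathways could be described by role, and not every gene taken is printed. Of 646 genes checked, 20 share a stretch of at least 95% identity with another gene and 64 overlap exons on the opposite strand, whose reads cannot be told apart without the strand setting. Alternatives were other scalings, filters and tools (DESeq2 1.42.0, limma 3.58.1), the 6 DMSO libraries alone, a replicate block, each library left out, a 2-fold minimum and the seed storage level as a covariate. Leaving out both ixr1-1 libraries of number 1 was chosen after seeing the data.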

Additional observations from a re-analysis of the deposited data

Results flagged for a closer look

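For 9 named genes the genotype difference was not the same in DMSO and in isoxaben, by edgeR's interaction test with Benjamini-Hochberg adjustment over all tested genes. The test did not pair the DMSO and isoxaben libraries of split flasks. All 9 had the smaller or the opposite difference in isoxaben. In 4 of them the difference in isoxaben was called in the opposite direction. PROPEP3, the peptide precursor, was higher in ixr1-1 in DMSO (1.96 ± 0.34) and lower in isoxaben (-1.24 ± 0.29), an interaction of -3.20 ± 0.44 (adjusted p = 0.0019). GSTU12 went from 1.63 ± 0.34 to -1.08 ± 0.28 (-2.71 ± 0.44, adjusted p = 0.0075). The expansin-like EXLA3 went from 0.91 ± 0.27 to -1.61 ± 0.22 (-2.51 ± 0.35, adjusted p = 0.0013), and its call in DMSO was lost without Col-0 library 1 or 3 or ixr1-1 library 1 or 2 (0.074, 0.14, 0.059 and 0.090). ERF6 went from 1.16 ± 0.17 to -0.77 ± 0.15 (-1.93 ± 0.23, adjusted p = 0.00018).

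In the other 5 the difference in DMSO was present and that in isoxaben near 0, with a negative sign in AT5G39670. WRKY40 went from 2.30 ± 0.18 to 0.30 ± 0.15 (-2 ± 0.23, adjusted p = 0.00052) and ZAT10 from 1.97 ± 0.22 to 0.27 ± 0.20 (-1.70 ± 0.30, adjusted p = 0.017). AT5G39670 went from 1.3 ± 0.19 to -0.12 ± 0.17 (-1.43 ± 0.26, adjusted p = 0.027), MPK3 from 0.98 ± 0.10 to 0.22 ± 0.10 (-0.76 ± 0.14, adjusted p = 0.016) and NAC062 from 0.68 ± 0.08 to 0.11 ± 0.07 (-0.57 ± 0.11, adjusted p = 0.019).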

How the results depend on the processing

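The count of genes called higher in DMSO (1996) was 1738 with DESeq2, 2016 with limma-voom and 1900 with the 6 DMSO libraries alone, and the lower count (1513) was 1349, 1549 and 1413. A 2-fold minimum left 532 and 88 genes, and 435 of the 2602 called in isoxaben. Library size alone gave 926 lower genes. With the seed storage covariate 180 and 30 genes were called in DMSO and 110 in isoxaben, and that covariate does not overlap between the genotypes. Leaving out 1 DMSO library gave 1404 to 2009 higher and 877 to 1378 lower genes (971 without Col-0 library 1 and 877 without ixr1-1 library 2), 2340 to 2756 calls in isoxaben and 22 to 85 interaction calls (28 without Col-0 library 3 and 22 without ixr1-1 library 2). DESeq2 gave 104 interaction calls in place of 64. Deviations of same-numbered Col-0 and ixr1-1 libraries correlated at 0.046, 0.152 and 0.095, and each library correlated best with its own number. The numbers were not taken to pair the samples. With the replicate number as a block, 2311 genes were higher and 2009 lower in DMSO, 3572 were called in isoxaben and 99 for the interaction, and the wall remodelling list had 11 higher in place of 6.

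The sign turned for few of the named genes, none of them called except SUS3. With the seed storage covariate CESA3 was at -0.15, SUS3 at 0.03, PRR9 at 0.09, SESA5 at -1.01 and ICL at 0.31. Leaving out 1 DMSO library, the difference ranged from -0.03 to 0.13 for CESA3, from -0.21 to 0.17 for ICL and from -0.12 to 0.3 for MLS. It turned for CESA3 without ixr1-1 library 2 (-0.02) or 3 (-0.03), for ICL without Col-0 library 1 (0.17) or ixr1-1 library 3 (0.01) and for MLS without Col-0 library 2 (-0.09) or ixr1-1 library 3 (-0.12). Over all alternatives, 303 single-gene values kept their direction and lost their call, 14 gained one and 2818 kept both. The covariate cut called list members to 8 for seed storage, 3 for oil bodies, 1 for ethylene, 2 for wall integrity, 2 lower for iron and 3 lower for indole glucosinolates, and to 0 for jasmonate, salicylate, touch, detoxification and reserve mobilisation. Depth limits genes of few counts, above all the Col-0 level of seed genes and the embryo regulators that were not tested.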

Other observations

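Some transcripts had a mean of at least 1 CPM in 1 genotype and at most 3 counts over the DMSO libraries of the other. They numbered 21 with the higher level in ixr1-1 and 0 with the higher level in Col-0. Of the 21, 10 are in the seed lists and 12 are seed-associated by any rule. The 9 others included AT1G04560, annotated as an AWPM-19-like protein, which had 0 counts in Col-0 and 72 in ixr1-1 (at least 28.9-fold higher), and MEE26, with 0 and 42 counts (at least 16.9-fold). The receptor-like kinase gene CRK7 had 3 counts in Col-0 and 46 in ixr1-1, a ratio of 18.5 with a 95% counting interval of 5.94 to 92.9. CYP82C3 had 2 and 72 counts (ratio 43.4, 11.6 to 365), and it shares 95.6% identity over 21.7% of its length with AT4G31970. The papain-type protease gene AT3G54940 had 1 and 59 counts (ratio 71.1, 12.3 to 2860) and the bHLH gene AT5G56960 had 2 and 48 (ratio 28.9, 7.59 to 246). PDF1.2c had 0 and 35 counts and was not called. AOP3 and PDF1.3 complete the set.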
